A study of Homo sapiens with 24 samples.

Results

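CYR61, CTGF, ANKRD1, AMOTL2, FJX1 and MYOF are transcripts commonly read as targets of the transcriptional co-activators YAP and TAZ. They were chosen by symbol as a family, with earlier results of these data known, and all 6 had a row among the 12547 endogenous genes of the table (CYR61 and CTGF are the older symbols of CCN1 and CCN2). They were followed in 24 polyA RNA libraries of U2OS, a human osteosarcoma cell line. Cells of 4 genotypes received actinomycin D at 5 µg/mL, which blocks transcription, and sodium arsenite at 200 µM, an oxidative stressor, for 0, 4 or 8 h, and each of the 12 groups had 2 libraries. These genotypes were sgQKI+QKI7-WT and sgQKI+QKI7-△KH, in which cells with a QKI guide received QKI7 or a form labelled △KH, then sgQKI+EV, with the QKI guide and EV, and sgNS+EV, with the sgNS guide and EV. The add-back genotypes are written QKI7-WT and QKI7-△KH below. QKI is an RNA-binding protein that contacts RNA through its KH domain, and the series asks how QKI bears on mRNA stability. Whether a genotype was 1 clone or a pool, and whether the 2 libraries of a group came from separate cultures, was not given in the sources used here, so p-values measure only the spread between these libraries, which may be technical.

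YAP and TAZ (gene WWTR1) act with the TEAD family of DNA-binding proteins to switch on their targets. When the Hippo kinases, ending in LATS1 and LATS2, are active, YAP and TAZ are phosphorylated and kept in the cytoplasm. Many targets feed back on the pathway or act on the matrix and cytoskeleton, and several are known as immediate-early transcripts with a short life. Among the 6, CYR61 and CTGF encode secreted matricellular proteins of the CCN family, ANKRD1 an ankyrin repeat protein that binds titin in muscle and is found in the nucleus, and AMOTL2 an angiomotin family scaffold that binds YAP and holds it out of the nucleus. FJX1 is the human relative of Drosophila four-jointed, a Golgi kinase that in the fly modifies the cadherins Fat and Dachsous upstream of Hippo. MYOF encodes myoferlin, a membrane protein of fusion and repair.

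The values are a spike-in-normalised signal, deposited by the authors on a linear scale, and read depth is unknown. In such bulk RNA, fewer cells and less RNA per cell cannot be told apart. Endogenous rows summed to between 690431 and 1367862 per library and the ERCC spike-in rows to between 11485 and 11940. Replicate libraries correlated across genes with Pearson r of at least 0.9889, the lowest being the QKI7-WT libraries at 4 h. QKI itself (GRCh38 chromosome 6, 163414000 to 163578596, plus strand) had a 0 h signal of 60.4 and 46.3 in QKI7-WT, 47.6 and 50.2 in QKI7-△KH, 35.98 and 32.7 in sgQKI+EV, and 59.98 and 48.2 in sgNS+EV. At 4 h it was 50.5 and 32.8 in QKI7-WT, 24.7 and 22.6 in QKI7-△KH, 15.3 and 17.1 in sgQKI+EV, and 53.97 and 50.1 in sgNS+EV, and at 8 h it was 18.7 and 17.97 in QKI7-WT, 17.8 and 19.1 in QKI7-△KH, 10.6 and 11.7 in sgQKI+EV, and 24.1 and 21.9 in sgNS+EV. The sgQKI+EV libraries were the lowest at each time, with a difference from sgNS+EV at 0 h of −0.63 (SE 0.14, limma adjusted p = 0.0264), and RNA of the edited locus and of the add-back construct share this row and cannot be told apart. Of the mesenchymal markers 4 of 4 were measured, of the osteoblast markers 4 of 9 (RUNX2, SPP1 and COL1A1 among them), of the epithelial markers 3 of 6 (EPCAM, KRT8 and KRT18) and of the blood markers 1 of 5 (CD68).

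During the chase the 6 transcripts parted into fast, sustained and slow losses. Change is given as the log2 difference of signal plus 1 from a single limma fit over all 24 libraries, with p adjusted by Benjamini-Hochberg over all 12547 genes and a threshold of 0.05. From 0 h to 8 h all 6 fell in every genotype, against a background of 90.0% in QKI7-WT, 90.6% in QKI7-△KH, 90.5% in sgQKI+EV and 88.2% in sgNS+EV of all genes that fell. The median change of all genes over that time was −0.77 in QKI7-WT, −0.77 in QKI7-△KH, −0.82 in sgQKI+EV and −0.70 in sgNS+EV, and CYR61, CTGF, ANKRD1, FJX1 and AMOTL2 differed from it by −5.02 to −0.79. MYOF was above it, by 0.22 in QKI7-WT, 0.16 in QKI7-△KH, 0.089 in sgQKI+EV and 0.28 in sgNS+EV. Scaling to library totals moved the median of all genes to between −0.28 and −0.22, and quantile normalisation to between 0.050 and 0.056. The genes that fell then numbered 6121 to 6793 over the 4 genotypes with library totals, where 1474 to 1703 rose. With quantile normalisation 3379 to 3746 fell and 4162 to 4537 rose, against 11068 to 11371 that fell on the spike-in scale. Under both scalings the 5 members other than MYOF still fell in each genotype.

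**Figure D1:**
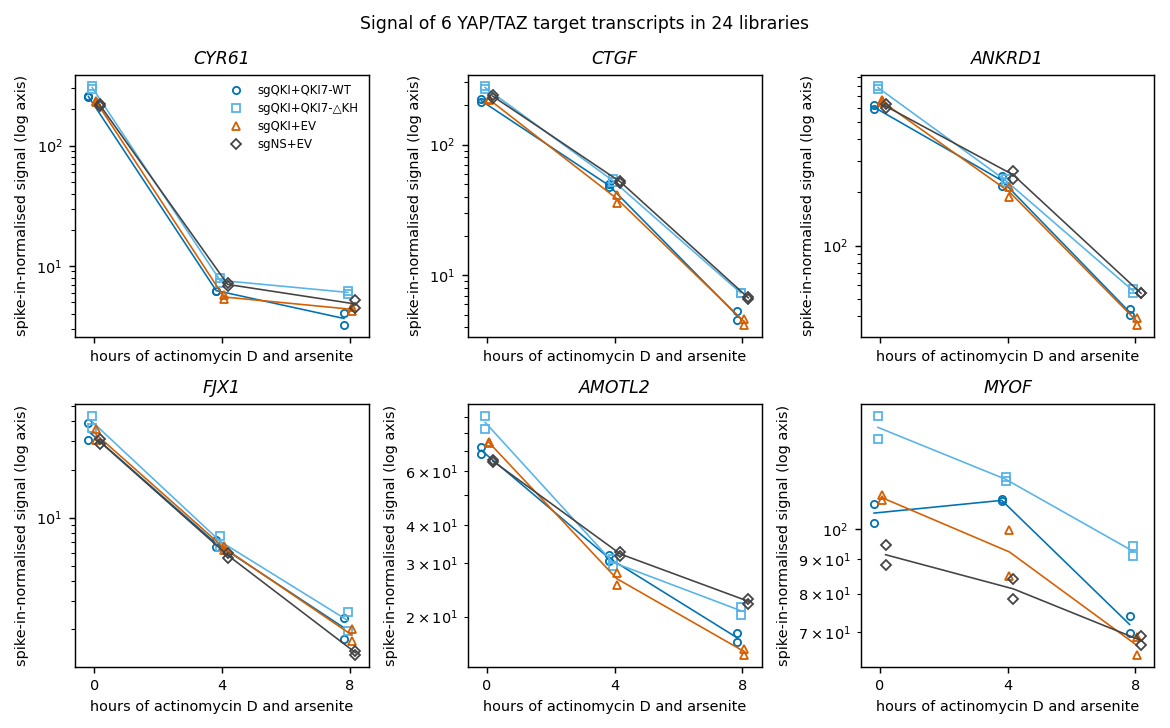
Signal of each of the 6 transcripts (log axis, spike-in-normalised) at 0, 4 and 8 h of actinomycin D and arsenite; points are the 24 libraries and lines join the means of 2 libraries. CYR61 dropped to between 5.29 and 7.96 by 4 h and fell more slowly after that, CTGF and ANKRD1 went on falling after 4 h, and MYOF changed least.

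CYR61 lost nearly all of its signal within the first 4 h. The gene lies on GRCh38 chromosome 1, 85580761 to 85583962, plus strand. At 0 h its signal was 253 and 259.8 in QKI7-WT, 311 and 297 in QKI7-△KH, 236 and 229 in sgQKI+EV, and 212 and 223 in sgNS+EV. At 4 h it was 6.24 and 6.23 in QKI7-WT, 7.96 and 7.22 in QKI7-△KH, 5.29 and 5.76 in sgQKI+EV, and 6.76 and 7.28 in sgNS+EV. At 8 h it was 4.09 and 3.23 in QKI7-WT, 5.84 and 6.22 in QKI7-△KH, 4.54 and 4.18 in sgQKI+EV, and 5.20 and 4.45 in sgNS+EV. Every 4 h library was far below every 0 h library, while the 4 h and 8 h libraries lay close together, between the 18.8th and 29.5th percentile of the genes in their library, where the 0 h libraries were between the 94.5th and 95.7th. The 4 h mean was 2.43% in QKI7-WT, 2.50% in QKI7-△KH, 2.37% in sgQKI+EV and 3.23% in sgNS+EV of the 0 h mean. The first 4 h gave a change of −5.15 in QKI7-WT, −5.15 in QKI7-△KH, −5.17 in sgQKI+EV and −4.77 in sgNS+EV (SE 0.09 each, limma adjusted p between 1.61e-20 and 8.56e-20), the lowest of all 12547 genes in each of the 4 genotypes. Since 1 was added to each signal, genes with a low 0 h signal could not fall this far. This limits the rank here and the ranks given below.

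The CYR61 loss slowed after 4 h. From 4 h to 8 h it changed by −0.64 in QKI7-WT, −0.29 in QKI7-△KH, −0.28 in sgQKI+EV and −0.46 in sgNS+EV, against medians of all genes of −0.54 in QKI7-WT, −0.30 in QKI7-△KH, −0.44 in sgQKI+EV and −0.39 in sgNS+EV. All 4 changes passed (limma adjusted p = 1.69e-06 to 0.00962). In sgQKI+EV the call was lost without 4 h replicate 2 (−0.23, adjusted p = 0.0577) or 8 h replicate 2 (−0.23, 0.0707), and in QKI7-△KH without 4 h replicate 1 (−0.23, 0.0978) or 8 h replicate 1 (−0.25, 0.0843). With quantile normalisation the 4 h to 8 h change of CYR61 turned positive in QKI7-△KH (0.0085), sgQKI+EV (0.15) and sgNS+EV (0.060), and in QKI7-WT it no longer passed (−0.10, 0.42). With library totals it was positive in sgQKI+EV (0.056) and the call was lost in QKI7-△KH (−0.025, 0.898). Expressed as a half-life under exponential loss, the first 4 h gave 44.8 min in QKI7-WT, 45.1 min in QKI7-△KH, 44.5 min in sgQKI+EV and 48.5 min in sgNS+EV. The last 4 h gave 5.20 h (4.21 to 6.57) in QKI7-WT, 12.03 h (8.95 to 18.5) in QKI7-△KH, 11.7 h (8.68 to 18.1) in sgQKI+EV and 7.41 h (5.64 to 10.6) in sgNS+EV, where the range in brackets is over the 4 pairings of libraries. The late minus the early change was 4.51 in QKI7-WT, 4.86 in QKI7-△KH, 4.88 in sgQKI+EV and 4.31 in sgNS+EV (SE 0.16 each), the highest value among all genes in each genotype. Of all genes 38.6% passed in QKI7-WT, 14.0% in QKI7-△KH, 8.15% in sgQKI+EV and 20.7% in sgNS+EV. This contrast was chosen after the data were seen, and for CYR61 it passed in each genotype with limma adjusted p between 4.65e-15 and 6.15e-14. A slower late loss also passed in each genotype for FJX1 (0.69 to 1.01, limma adjusted p = 0.00659 to 0.0425). It passed for AMOTL2 too (0.32 to 0.99, 1.19e-05 to 0.0463). For FJX1 the 1 added to low late signals enlarges this contrast. Its half-lives, taken without that 1, were 1.61 to 1.71 h over the first 4 h and 1.98 to 2.43 h over the last. The FJX1 fall over the last 4 h still ranked 16 to 62 from the lowest of all genes. For members other than CYR61 this contrast was not refitted under other scalings or without single libraries. The signals of CYR61 at 8 h stayed above the lowest endogenous signal of a library, which was between 0.641 and 1.74. With depth unknown, that lowest signal is not a detection limit. Whether a residual background held up the late CYR61 values was not tested.

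CTGF, the other CCN member, fell over both intervals. It lies on chromosome 6, 131948176 to 131951373, minus strand, where 1 annotated gene, AL133346.1, overlaps it. At 0 h its signal was 211 and 223 in QKI7-WT, 279 and 269 in QKI7-△KH, 225 and 219 in sgQKI+EV, and 229 and 241 in sgNS+EV. By 4 h the CTGF signal was 49.97 and 47.5 in QKI7-WT, 52.01 and 54.1 in QKI7-△KH, 41.5 and 35.9 in sgQKI+EV, and 51.1 and 52.5 in sgNS+EV. At 8 h it was 5.38 and 4.54 in QKI7-WT, 7.36 and 7.36 in QKI7-△KH, 4.65 and 4.17 in sgQKI+EV, and 6.58 and 6.87 in sgNS+EV. The 3 time points did not overlap in any genotype. The share of all genes that separated in this way was not counted, so it is not read as a trait of CTGF. Over the first 4 h CTGF changed by −2.13 in QKI7-WT, −2.34 in QKI7-△KH, −2.50 in sgQKI+EV and −2.16 in sgNS+EV (SE 0.08), which ranked between 28 and 36 from the lowest of all genes. Over the last 4 h it changed by −3.06 in QKI7-WT, −2.69 in QKI7-△KH, −2.87 in sgQKI+EV and −2.77 in sgNS+EV, the lowest of all 12547 genes in every genotype (limma adjusted p = 6.37e-17 to 9.21e-16). The half-life over the first 4 h was 1.86 h (1.79 to 1.93) in QKI7-WT, 1.69 h (1.65 to 1.73) in QKI7-△KH, 1.59 h (1.51 to 1.66) in sgQKI+EV and 1.83 h (1.79 to 1.88) in sgNS+EV. Over the last 4 h it was 1.21 h (1.16 to 1.27) in QKI7-WT, 1.40 h (1.39 to 1.42) in QKI7-△KH, 1.28 h (1.21 to 1.36) in sgQKI+EV and 1.36 h (1.34 to 1.38) in sgNS+EV. The late minus the early change of CTGF was −0.93 in QKI7-WT (adjusted p = 1.24e-04), −0.35 in QKI7-△KH (adjusted p = 0.0933), −0.38 in sgQKI+EV (adjusted p = 0.0837) and −0.61 in sgNS+EV (0.00564), so that a steeper late fall passed in QKI7-WT and sgNS+EV. The median of all genes in this contrast was −0.33 in QKI7-WT, 0.17 in QKI7-△KH, −0.051 in sgQKI+EV and −0.049 in sgNS+EV. In either direction 38.6% of all genes passed in QKI7-WT, 14.0% in QKI7-△KH, 8.15% in sgQKI+EV and 20.7% in sgNS+EV. The 1 added to each signal shrinks the late fall of CTGF. Its half-lives, taken without that 1, were shorter over the last 4 h in every genotype, with the early and late ranges apart. The calls in this contrast are therefore not read as a difference between genotypes.

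ANKRD1 followed CTGF closely. Its gene lies on chromosome 10, 90912096 to 90921276, minus strand. At 0 h the signal of ANKRD1 was 590.2 and 618 in QKI7-WT, 791 and 769 in QKI7-△KH, 662 and 643 in sgQKI+EV, and 598 and 628 in sgNS+EV. After 4 h ANKRD1 stood at 249 and 217 in QKI7-WT, 229 and 237 in QKI7-△KH, 214 and 187 in sgQKI+EV, and 262 and 239 in sgNS+EV. After 8 h ANKRD1 stood at 40.7 and 43.5 in QKI7-WT, 53.7 and 57.01 in QKI7-△KH, 38.7 and 35.6 in sgQKI+EV, and 53.9 and 53.6 in sgNS+EV. Here too the time points did not overlap within a genotype, with the share over all genes again not counted. ANKRD1 changed by −1.37 in QKI7-WT, −1.74 in QKI7-△KH, −1.70 in sgQKI+EV and −1.29 in sgNS+EV over the first 4 h (SE 0.08, rank 122 to 192 from the lowest). Over the last 4 h it changed by −2.44 in QKI7-WT, −2.05 in QKI7-△KH, −2.40 in sgQKI+EV and −2.20 in sgNS+EV, rank 2 or 3 from the lowest of all genes (limma adjusted p = 2.14e-15 to 7.10e-14). The late minus the early change was −1.06 in QKI7-WT (adjusted p = 2.69e-05), −0.32 in QKI7-△KH (adjusted p = 0.117), −0.70 in sgQKI+EV (adjusted p = 0.00253) and −0.91 in sgNS+EV (1.20e-04), past the threshold in each genotype except QKI7-△KH. These stood beside medians of all genes of −0.33 in QKI7-WT, 0.17 in QKI7-△KH, −0.051 in sgQKI+EV and −0.049 in sgNS+EV. Its half-life over the last 4 h was 1.62 h (1.53 to 1.72) in QKI7-WT, 1.93 h (1.87 to 1.99) in QKI7-△KH, 1.64 h (1.55 to 1.76) in sgQKI+EV and 1.80 h (1.75 to 1.86) in sgNS+EV.

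**Figure D2:**
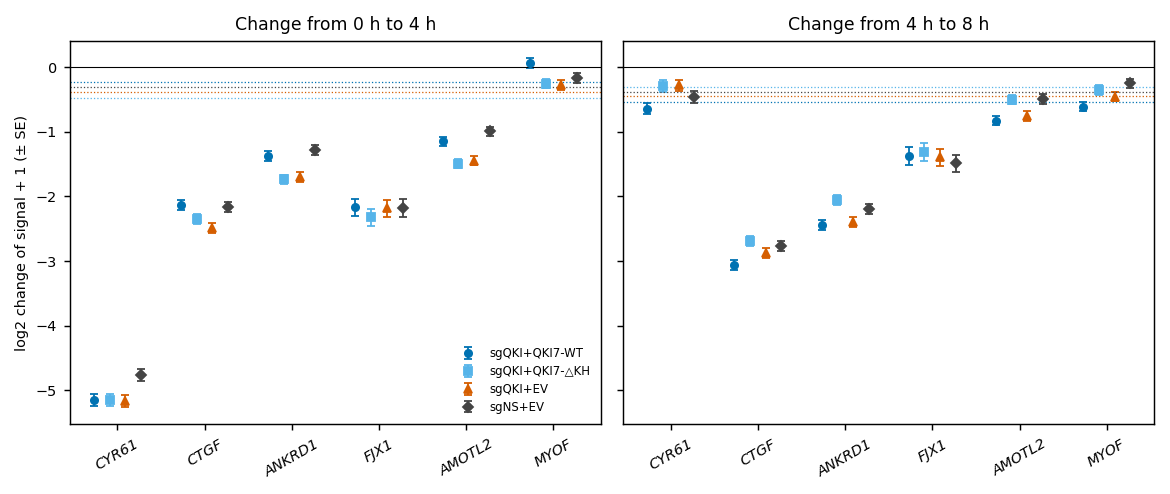
Log2 change of signal plus 1 from 0 h to 4 h (left) and from 4 h to 8 h (right) for the 6 transcripts in QKI7-WT, QKI7-△KH, sgQKI+EV and sgNS+EV, where bars are the standard error; dotted lines are the medians of all 12547 genes. CYR61 is lowest on the left at −5.17 to −4.77 and near the medians on the right, where CTGF is lowest at −3.06 to −2.69.

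Across the 12 group means CTGF and ANKRD1 had a Pearson r of 0.998 on the log2 scale, as a description of points that share libraries and a common fall with time. The genes most like CTGF among 8557 with a mean signal of at least 10 were SPPL3 (r = 0.9985), ANKRD1 (0.9981) and HMGXB4 (0.9978), and those most like ANKRD1 were SPPL3 (0.9981), CTGF (0.9981) and ISCA2 (0.9976). CYR61 stood nearest to MGAT3 (0.9958), URB1 (0.9958) and NDST2 (0.9957), with r = 0.868 to CTGF. Among the genes nearest to AMOTL2 were PLK2 (0.9967) and TTC5 (0.9964), and FJX1 stood nearest to GLI2 (0.997), B4GALT5 (0.9968) and PPAN (0.996). MYOF stood nearest to MVK (0.9932), DPP9 (0.9823) and SRSF7 (0.9816), and its r to the other members was 0.606 to 0.783, the lowest among the 6. Each of these values is a likeness over 12 points only.

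The promoters of CTGF and ANKRD1 are shown because both hold repeats of the core motif that TEAD proteins are known to bind. The 250 bases before the start were taken from RefSeq (GRCh38.p14), with GGAATG on the given strand or CATTCC, its reverse complement, in capitals. RefSeq starts were matched for 5 of the 6 members, which leaves CYR61. The AMOTL2 sequence shown is the window of its second listed start, and each gene is read from the minus strand, at chr6:131951373-131951622 for CTGF, chr10:90921088-90921337 for ANKRD1 and chr3:134374448-134374697 for AMOTL2.
CTGF: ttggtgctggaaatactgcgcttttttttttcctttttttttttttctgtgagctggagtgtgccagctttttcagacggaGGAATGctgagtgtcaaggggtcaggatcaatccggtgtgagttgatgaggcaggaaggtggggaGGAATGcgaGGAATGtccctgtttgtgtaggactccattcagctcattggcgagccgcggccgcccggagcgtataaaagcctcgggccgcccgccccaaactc
ANKRD1: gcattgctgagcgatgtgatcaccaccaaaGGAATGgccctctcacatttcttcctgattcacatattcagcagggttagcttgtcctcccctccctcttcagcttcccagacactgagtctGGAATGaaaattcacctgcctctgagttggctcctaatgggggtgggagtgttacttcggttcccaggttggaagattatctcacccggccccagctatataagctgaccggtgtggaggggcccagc
AMOTL2: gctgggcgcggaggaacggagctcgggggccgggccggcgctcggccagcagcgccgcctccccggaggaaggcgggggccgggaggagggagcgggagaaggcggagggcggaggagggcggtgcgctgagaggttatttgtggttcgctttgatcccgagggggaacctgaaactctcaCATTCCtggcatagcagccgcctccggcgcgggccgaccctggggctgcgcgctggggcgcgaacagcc
CTGF held 3 matches, beginning 169, 104 and 95 bases before the start. ANKRD1 held 2 matches, 220 and 128 bases before the start. It also held 1 match to TGANTCA, a loose form of the AP-1 core in which N is any base. That match, read on both strands, had T at N and did not overlap the others. AMOTL2 held 1 match 69 bases before the second start and 0 in the window of the first, and the windows of FJX1 and MYOF held 0. Of 35116 promoter windows of the same length 11.9% held at least 1 match, 0.94% at least 2 and 0.0826% at least 3. TGANTCA, with any base at N, was held by 6.57% of these windows. A match is a string of letters and not a measured binding site.

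FJX1 fell about as fast as CTGF at first. It lies on chromosome 11, 35618419 to 35620868, plus strand. At 0 h its signal was 30.5 and 39.00 in QKI7-WT, 43.2 and 36.4 in QKI7-△KH, 35.8 and 30.5 in sgQKI+EV, and 28.8 and 30.9 in sgNS+EV. The 4 h signals were 6.57 and 7.21 in QKI7-WT, 6.55 and 7.70 in QKI7-△KH, 6.68 and 6.29 in sgQKI+EV, and 6.02 and 5.62 in sgNS+EV. The 8 h signals were 2.36 and 1.73 in QKI7-WT, 1.96 and 2.58 in QKI7-△KH, 2.01 and 1.69 in sgQKI+EV, and 1.39 and 1.47 in sgNS+EV. The time points were apart in each genotype, and both sgNS+EV libraries were the lowest at 4 h and at 8 h. How many of all genes had either order was not counted. The 8 h values lay between the 3.15th and 10.7th percentile of their library. FJX1 changed by −2.17 in QKI7-WT, −2.33 in QKI7-△KH, −2.19 in sgQKI+EV and −2.18 in sgNS+EV over the first 4 h (SE 0.14) and by −1.38 in QKI7-WT, −1.31 in QKI7-△KH, −1.40 in sgQKI+EV and −1.49 in sgNS+EV over the last 4 h, both past the threshold throughout. The half-life over 8 h was 1.96 h (1.78 to 2.17) in QKI7-WT, 1.94 h (1.79 to 2.10) in QKI7-△KH, 1.92 h (1.82 to 2.04) in sgQKI+EV and 1.83 h (1.79 to 1.87) in sgNS+EV. Since 1 was added to signals this low, the late log2 changes of FJX1 understate the ratio of its signals.

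AMOTL2, the feedback scaffold, fell by less. Its gene lies on chromosome 3, 134355874 to 134375479, minus strand, with RPL39P5 and MIR6827 overlapping it. At 0 h its signal was 68.2 and 72.2 in QKI7-WT, 90.8 and 82.6 in QKI7-△KH, 74.96 and 73.9 in sgQKI+EV, and 65.4 and 64.03 in sgNS+EV. By 4 h AMOTL2 had a signal of 31.7 and 30.5 in QKI7-WT, 29.3 and 30.9 in QKI7-△KH, 27.9 and 25.4 in sgQKI+EV, and 32.5 and 31.7 in sgNS+EV. By 8 h AMOTL2 had a signal of 17.6 and 16.6 in QKI7-WT, 20.3 and 21.6 in QKI7-△KH, 15.01 and 15.7 in sgQKI+EV, and 21.98 and 22.9 in sgNS+EV. The sgNS+EV libraries were the lowest at 0 h and the highest at 8 h, an order whose share over all genes was not counted. AMOTL2 changed by −1.15 in QKI7-WT, −1.49 in QKI7-△KH, −1.45 in sgQKI+EV and −0.99 in sgNS+EV over the first 4 h (SE 0.07) and by −0.83 in QKI7-WT, −0.51 in QKI7-△KH, −0.76 in sgQKI+EV and −0.50 in sgNS+EV over the last, with limma adjusted p of at most 1.04e-05. Its half-life over 8 h was 3.93 h (3.77 to 4.10) in QKI7-WT, 3.90 h (3.70 to 4.13) in QKI7-△KH, 3.51 h (3.45 to 3.58) in sgQKI+EV and 5.24 h (5.08 to 5.40) in sgNS+EV.

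MYOF fell least of the 6. It lies on chromosome 10, 93306429 to 93482317, minus strand. At 0 h its signal was 102 and 109 in QKI7-WT, 148 and 136 in QKI7-△KH, 112 and 111 in sgQKI+EV, and 88.4 and 94.6 in sgNS+EV. At 4 h it was 111 and 109.9 in QKI7-WT, 118 and 119 in QKI7-△KH, 99.8 and 84.9 in sgQKI+EV, and 84.2 and 78.4 in sgNS+EV. At 8 h it was 74.1 and 69.8 in QKI7-WT, 90.9 and 94.1 in QKI7-△KH, 68.9 and 64.8 in sgQKI+EV, and 66.97 and 69.1 in sgNS+EV. In QKI7-WT both 4 h libraries were just above the 0 h libraries, and in the other genotypes both were below them. Every 8 h library was below the 0 h libraries of its genotype. How many of all genes had these orders was not counted. Over the first 4 h MYOF changed by 0.063 in QKI7-WT, −0.26 in QKI7-△KH, −0.27 in sgQKI+EV and −0.17 in sgNS+EV (SE 0.07), which passed in QKI7-△KH (limma adjusted p = 0.00415) and sgQKI+EV (0.00293) and not in QKI7-WT (0.509) or sgNS+EV (0.056). The call in QKI7-△KH was lost without 0 h replicate 1 (−0.20, 0.0643) and that in sgQKI+EV without 4 h replicate 2 (−0.16, 0.0965). Both calls were lost under either scaling, with 0.035 in QKI7-△KH and −0.064 in sgQKI+EV for library totals and 0.023 in QKI7-△KH and −0.00088 in sgQKI+EV for quantile normalisation. A rise then passed in sgNS+EV with library totals (0.19, adjusted p = 0.00697) and quantile normalisation (0.18, 0.00152), and in QKI7-WT with quantile normalisation (0.14, 0.00985). The change over 8 h, −0.55 in QKI7-WT, −0.61 in QKI7-△KH, −0.73 in sgQKI+EV and −0.42 in sgNS+EV, passed in each genotype on the spike-in scale. With quantile normalisation it turned to 0.068 in QKI7-WT, 0.0089 in sgQKI+EV and 0.17 in sgNS+EV, and in sgNS+EV that higher value passed (adjusted p = 0.00121). In QKI7-△KH the call was lost (−0.00058, 0.991). With library totals it was lost in QKI7-WT (−0.0077, 0.901), QKI7-△KH (−0.021, 0.731) and sgNS+EV, at 0.090 (0.13), and it passed in sgQKI+EV (−0.12, 0.0489). Its half-life over 8 h was 14.4 h (12.4 to 17.3) in QKI7-WT, 12.9 h (11.4 to 14.95) in QKI7-△KH, 10.8 h (10.1 to 11.7) in sgQKI+EV and 18.7 h (16.1 to 22.5) in sgNS+EV.

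By interval, 5 of 6 members fell over the first 4 h in QKI7-WT and sgNS+EV and 6 of 6 in QKI7-△KH and sgQKI+EV, against 42.9% in QKI7-WT, 73.6% in QKI7-△KH, 63.8% in sgQKI+EV and 59.8% in sgNS+EV of all genes. Over the last 4 h all 6 fell in each genotype, against 83.7% in QKI7-WT, 58.2% in QKI7-△KH, 79.2% in sgQKI+EV and 64.9% in sgNS+EV of all genes. The MYOF call over the last 4 h in sgNS+EV (−0.25) was lost without 4 h replicate 1 (−0.20, adjusted p = 0.0689). With library totals MYOF did not pass over the last 4 h in any genotype, at −0.13 in QKI7-WT, −0.056 in QKI7-△KH, −0.055 in sgQKI+EV and −0.10 in sgNS+EV, nor with quantile normalisation, at −0.071 in QKI7-WT, −0.024 in QKI7-△KH, 0.0098 in sgQKI+EV and −0.011 in sgNS+EV. With shares of this size in all genes the number of members that fell says little, and the members differed in rank.

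**Figure D3:**
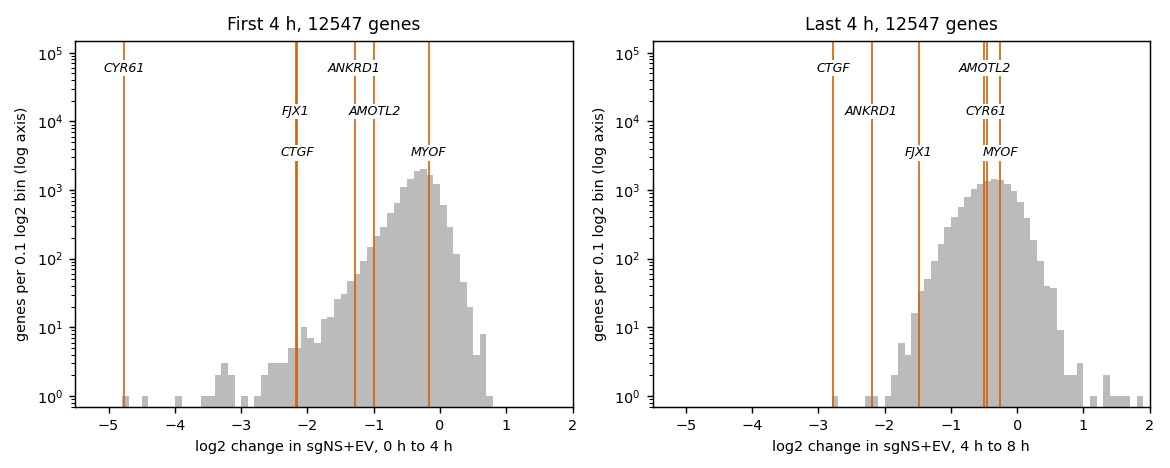
Number of genes per 0.1 log2 bin (log axis) by change in sgNS+EV over the first 4 h (left) and the last 4 h (right), with the 6 transcripts marked by lines. CYR61 is at the far left of the first panel and among the bulk of genes in the second, where CTGF is at the far left and ANKRD1 has rank 3 from the lowest.

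The untranslated 3′ ends were read for the AU-rich core TATTTAT, a motif known for marking short-lived mRNAs, and for ACTAAC, a core of the QKI recognition sequence, on the sense strand of the longest 3′ UTR per gene in GENCODE 29. ANKRD1 held 3 AU-rich cores, CYR61 2 and MYOF 1, while CTGF, AMOTL2 and FJX1 held 0. Among genes with a 3′ UTR within 10% of the same length, 20.2% held at least 1 for ANKRD1, 21.9% for CYR61 and 13.6% for MYOF. The fast members were split, with CYR61 and ANKRD1 holding the core and CTGF and FJX1 lacking it, and the slow member MYOF held 1. Of the sites, 2 from ANKRD1 and the one from MYOF are shown as 30 bases with the core in capitals, from bases 81 and 194 of the ANKRD1 3′ UTR and base 429 of the MYOF 3′ UTR.
ANKRD1 first site: aatctagtttcTATTTATcaacgtgttgtg
ANKRD1 last site: gtattcctgttTATTTATttactgccacgc
MYOF site: agaacaattctTATTTATgcccacaaccat
ACTAAC was found 0 times in all 6, where 5.38% to 17.8% of genes with a 3′ UTR of like length held it. Shares this low make its absence common. Other forms of the core and other parts of the transcripts were not searched, so this is not read as a lack of QKI sites.

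Before the chase, all 6 transcripts had their highest mean in QKI7-△KH. At 0 h both QKI7-△KH libraries were above the other 6 libraries for CYR61, CTGF, ANKRD1, AMOTL2 and MYOF, and for FJX1 1 QKI7-WT library came between them. The share of all genes with this separation was not counted, so it is not read as a trait of the members. The median signal of all genes was also highest in the QKI7-△KH libraries, at 28.0 and 26.6, against 23.2 to 25.6 in the other 6. As means ± SD (n = 2 each), ANKRD1 was 604 ± 19.7 in QKI7-WT, 780.1 ± 15.8 in QKI7-△KH, 652 ± 13.4 in sgQKI+EV and 613 ± 21.6 in sgNS+EV. MYOF was 106 ± 5.02 in QKI7-WT, 142 ± 7.96 in QKI7-△KH, 111 ± 1.20 in sgQKI+EV and 91.5 ± 4.37 in sgNS+EV. CTGF was 217 ± 8.52 in QKI7-WT, 274 ± 7.15 in QKI7-△KH, 222 ± 3.98 in sgQKI+EV and 235 ± 8.54 in sgNS+EV.

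QKI7-WT against QKI7-△KH at 0 h compares the 2 add-back forms. MYOF was lower in QKI7-WT, with a difference of −0.42 (SE 0.07, limma adjusted p = 0.00441). ANKRD1 at −0.37 (SE 0.08, 0.0141), CTGF at −0.34 (0.026) and AMOTL2 at −0.30 (0.0276) were lower too. CYR61 at −0.24 (0.11) and FJX1 at −0.20 (0.334) did not pass, with intervals of −0.43 to −0.058 and −0.48 to 0.086. Lower calls were made for 3.71% of all genes, whose median was −0.15 (−0.0098 with library totals), against 4 of 6 members. Library totals left MYOF past the threshold (−0.28, 0.0173), as did quantile normalisation (−0.28, 0.00103), while CTGF, ANKRD1 and AMOTL2 kept their direction without passing (−0.22 to −0.14). The call of MYOF was lost without QKI7-△KH replicate 1 (0.146) or QKI7-WT replicate 1 (0.0599). That of ANKRD1 was lost without QKI7-△KH replicate 1 (0.227) or 2 (0.055) or QKI7-WT replicate 1 (0.0902), and that of AMOTL2 without QKI7-△KH replicate 1 (0.392) or QKI7-WT replicate 1 (0.153) or 2 (0.0612). CTGF did not pass without any 1 of the 4 libraries (0.0612 to 0.329).

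QKI7-△KH against sgQKI+EV at 0 h shares the QKI7-△KH libraries with that comparison. CYR61 was higher in QKI7-△KH by 0.38 (SE 0.09, limma adjusted p = 0.0183), MYOF by 0.35 (0.0145), CTGF by 0.30 (0.0253) and ANKRD1 by 0.26 (0.0371). AMOTL2 at 0.22 (0.0512) and FJX1 at 0.25 (0.167) did not pass. Here 12.6% of all genes were higher and the median of all genes was 0.19, which library totals moved to −0.054 and quantile normalisation to 0.0030. Under both scalings 0 of 6 members passed, and the differences that had passed came to between 0.0051 and 0.17, while AMOTL2 turned to −0.034 with library totals. The calls of CYR61, CTGF and MYOF held without QKI7-△KH replicate 2 (adjusted p = 0.0434, 0.0493 and 0.0348), and AMOTL2 then passed too (0.0493). They were lost without QKI7-△KH replicate 1 (0.234, 0.258 and 0.22), sgQKI+EV replicate 1 (0.0658, 0.0792 and 0.0651) or sgQKI+EV replicate 2 (0.179, 0.216 and 0.155). ANKRD1 was lost without any 1 of the 4 (0.0651 to 0.295).

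QKI7-WT and sgQKI+EV did not differ past the threshold for any member at 0 h, with differences between −0.11 for ANKRD1 and 0.14 for CYR61 (limma adjusted p of 0.9997 for each), where 0.0877% of all genes passed. At an unadjusted p under 0.05 the count was 0 of 6 members and 596 genes. The interval was −0.049 to 0.32 for CYR61 and −0.23 to 0.077 for MYOF.

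sgQKI+EV against sgNS+EV at 0 h, which shares the sgQKI+EV libraries with the 2 comparisons above it, also gave 0 of 6 members past the threshold, where 1.55% of all genes passed. At an unadjusted p under 0.05 the limma fit gave 2 of 6 members and 1763 genes. MYOF came nearest at 0.28 (SE 0.07, limma adjusted p = 0.0573), then AMOTL2 at 0.20 (0.181). CYR61 at 0.10, CTGF at −0.080, ANKRD1 at 0.090 and FJX1 at 0.14 had adjusted p of 0.693 to 0.745. MYOF ranked 157 from the highest of all genes and AMOTL2 383. Library totals, which put the median of all genes at 0.11 in place of −0.060, brought MYOF (0.46), AMOTL2 (0.37) and ANKRD1 (0.27) past the threshold and turned CTGF to 0.096, and quantile normalisation brought MYOF (0.40) and AMOTL2 (0.30) past it, with CTGF at 0.0031.

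**Figure D4:**
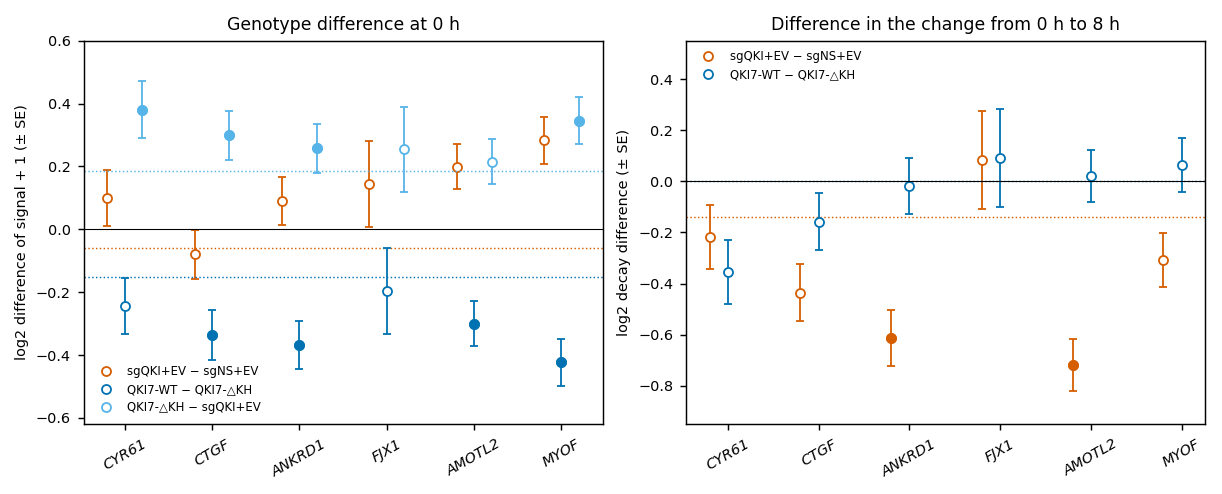
Genotype differences of the 6 transcripts at 0 h (left) and differences between genotypes in the change from 0 h to 8 h (right), on the log2 scale, where bars are the standard error; filled points passed an adjusted p of 0.05 and dotted lines are the medians of all genes. On the left the QKI7-WT minus QKI7-△KH values lie between −0.42 and −0.20, and on the right AMOTL2 at −0.72 and ANKRD1 at −0.61 are the filled points.

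The stability question was put directly by the difference in the 0 h to 8 h change between genotypes, negative where the genotype named first lost more. AMOTL2 and ANKRD1 fell further in sgQKI+EV than in sgNS+EV. AMOTL2 changed by −2.21 in sgQKI+EV and by −1.49 in sgNS+EV, a difference of −0.72 (SE 0.10, limma adjusted p = 0.00335, rank 14 from the lowest of all genes). Its 8 h mean was 20.6% of the 0 h mean in sgQKI+EV and 34.7% in sgNS+EV, and the half-life over 8 h was 3.51 h in sgQKI+EV and 5.24 h in sgNS+EV. ANKRD1 changed by −4.10 in sgQKI+EV and −3.49 in sgNS+EV, a difference of −0.61 (SE 0.11, 0.0139, rank 36), with half-lives of 1.94 h in sgQKI+EV and 2.28 h in sgNS+EV. CTGF at −0.44 (0.0659), MYOF at −0.31 (0.163), CYR61 at −0.22 (0.386) and FJX1 at 0.082 (0.867) did not pass. Against these 2 of 6 members, 0.669% of all genes fell further in sgQKI+EV, and the median of all genes was −0.14.

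Leaving out any 1 of the 8 libraries left a group with 1 library. The AMOTL2 call was lost only without sgNS+EV 8 h replicate 2, while the ANKRD1 call was lost in most of these fits. The leave-one-out differences given below are those of the fits in which a call was lost. A group of 1 library also makes a call harder to reach. A lost call therefore does not show that the left-out library drove the difference. The AMOTL2 difference was −0.69 without sgNS+EV 8 h replicate 2, against −0.72 with all libraries. The ANKRD1 difference, −0.61 with all libraries, was −0.59 without sgQKI+EV 0 h replicate 1 and −0.63 without replicate 2. It was −0.55 without sgQKI+EV 8 h replicate 2 and −0.58 without sgNS+EV 0 h replicate 1. Without sgNS+EV 8 h replicate 1 or 2 it was −0.61 or −0.62. The ANKRD1 call was also lost with quantile normalisation (−0.39, limma adjusted p = 0.076), under which AMOTL2 (−0.57, 1.70e-04) and CTGF (−0.39, 0.0177) passed. CTGF likewise passed with a pseudocount of 0.1 (−0.52, 0.0399). Over 0 h to 4 h alone AMOTL2 (−0.46, 0.0347), ANKRD1 (−0.41, 0.0354) and CYR61 (−0.40, 0.0484) passed, all lower, where 8.89% of all genes were lower.

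Between QKI7-WT and QKI7-△KH the 0 h to 8 h change of the members did not differ past the threshold. AMOTL2 changed by −1.98 in QKI7-WT and −1.999 in QKI7-△KH, a difference of 0.022 (SE 0.10, interval −0.19 to 0.23). ANKRD1 differed by −0.018 (interval −0.24 to 0.21), CTGF by −0.16 (−0.39 to 0.075), CYR61 by −0.35 (−0.62 to −0.091), FJX1 by 0.092 (−0.31 to 0.49) and MYOF by 0.064 (−0.16 to 0.28). The limma count was 0 of 12547 genes (0.00%), with 120 at an unadjusted p under 0.05, of which 1 of 6 members. Over 0 h to 4 h ANKRD1 (0.36, adjusted p = 0.0353), AMOTL2 (0.34, 0.0345) and MYOF (0.32, 0.0462) had a positive difference past the threshold, as did 2004 genes in all (16.0%), with a median of all genes of 0.24. It depended on which QKI7-WT 4 h library was kept. Without replicate 1, 0 genes passed by limma, with ANKRD1 at 0.27 (0.161), AMOTL2 at 0.32 (0.137) and MYOF at 0.31 (0.144), and without replicate 2, 5292 genes passed.

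Other genes of the pathway fell during the chase, as did 88.2% to 90.6% of all genes. Of 32 other YAP and TAZ targets 27 were measured, and all 27 fell from 0 h to 8 h in each genotype, with a median of −1.18 in QKI7-WT, −1.13 in QKI7-△KH, −1.31 in sgQKI+EV and −1.05 in sgNS+EV. THBS1, another matricellular target, changed by −1.94 in QKI7-WT, −1.95 in QKI7-△KH, −2.30 in sgQKI+EV and −1.84 in sgNS+EV. GLI2, a Hedgehog pathway transcription factor, changed by −2.31 in QKI7-WT, −2.47 in QKI7-△KH, −2.45 in sgQKI+EV and −2.38 in sgNS+EV. None of the 27 changed as much as CYR61, CTGF, ANKRD1 or FJX1, and the lowest was −2.47. All 25 Hippo pathway and TEAD genes fell in each genotype too, with a median of −1.35 in QKI7-WT, −1.32 in QKI7-△KH, −1.47 in sgQKI+EV and −1.21 in sgNS+EV. With shares this high in all genes, these counts say little about the lists. With library totals 22 to 23 of the 27 targets and 23 to 24 of the 25 Hippo genes fell, depending on genotype, and 0 to 1 targets and 0 Hippo genes rose. With quantile normalisation 18 to 19 targets fell and 2 to 3 rose, with medians of −0.35 to −0.28, and 17 to 18 Hippo genes fell and 1 to 3 rose, with medians of −0.50 to −0.40. In the Hippo list FRMD6, an upstream FERM domain protein, changed by −2.20 in QKI7-WT, −2.13 in QKI7-△KH, −2.27 in sgQKI+EV and −2.22 in sgNS+EV, and TEAD1, a DNA-binding partner of YAP, by −1.64 in QKI7-WT, −1.54 in QKI7-△KH, −1.85 in sgQKI+EV and −1.71 in sgNS+EV. NOV, a further CCN gene and the 1 of 4 others that was measured, changed by −1.83 in QKI7-WT, −1.83 in QKI7-△KH, −1.91 in sgQKI+EV and −1.66 in sgNS+EV.

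At 0 h, 5 of the 27 targets were lower in QKI7-WT than in QKI7-△KH and 0 were higher, where 3.71% of all genes were lower. Among them were COL8A1, a collagen gene (−0.77, 1.00e-04 for the limma adjusted p), THBS1 (−0.60, 7.28e-05) and CRIM1 (−0.33, 0.0113). Of the 25 Hippo genes 4 were lower and 0 higher, namely the cadherin gene FAT1 (−0.36, 0.0151), YAP1 itself (−0.34, 0.026), TEAD1 (−0.28, 0.0372) and FRMD6 (−0.25, 0.0464), and NOV was lower as well (−0.64, 3.69e-04). The list medians of −0.23 and −0.20 stood beside −0.15 for all genes. Against sgQKI+EV, 5 of 27 targets and 4 of 25 Hippo genes were higher in QKI7-△KH, near the 12.6% of all genes that were higher, with the merlin gene NF2 (0.37, 0.0179), TEAD4 (0.33, 0.0214) and CRIM1 (0.30, 0.0148) among them and list medians of 0.22 and 0.20 beside 0.19 for all genes. These counts moved with scaling: 2 targets and 0 Hippo genes were lower in QKI7-WT than in QKI7-△KH with library totals, and 2 and 1 with quantile normalisation, while 0 of either list were higher in QKI7-△KH than in sgQKI+EV under both. COL8A1 was the 1 target lower in QKI7-WT than in sgQKI+EV (−0.58, 0.00839), and 0 of 25 Hippo genes passed there. That count moved with scaling too, to 4 targets and 1 Hippo gene lower in QKI7-WT under library totals and under quantile normalisation. Of all genes 79 were then lower with library totals and 75 with quantile normalisation. Between sgQKI+EV and sgNS+EV at 0 h, 0 of 27 and 0 of 25 passed by limma, where 1763 of all genes had an unadjusted p under 0.05. With library totals 6 targets and 2 Hippo genes were higher in sgQKI+EV there, and with quantile normalisation 3 targets were higher and 1 Hippo gene was lower. In the 0 h to 8 h change, THBS1 was the 1 gene of both lists to fall further in sgQKI+EV than in sgNS+EV (−0.47, 0.0392), with list medians of −0.20 and −0.19 beside −0.14 for all genes. Between QKI7-WT and QKI7-△KH none of either list differed past the threshold in that change.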

How the data were processed

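PolyA RNA libraries (KAPA Stranded mRNA-Seq, per the labels' protocols) gave a table of 24 columns, 2 for each of 12 groups. The authors deposited linear signal values, and the 38 ERCC rows sum to nearly the same in every library, as spike-in scaling gives. STAR, RSEM and GRCh38 are named in the submitters' processing notes, without versions, and the unit before scaling and the strand setting of counting are not given in the sources used here. The depth is therefore unknown, and no counting interval is given. Values were taken as log2(signal + 1), so fold changes of low genes are understated, and fitted with limma 3.58.1 (R 4.3.3, trend) with 12 group means over 24 libraries, two-sided, Benjamini-Hochberg over 12547 endogenous genes at 0.05. A filter of a signal of at least 1 in at least 2 libraries kept all 12547. Intervals are 95% intervals of the same fit. Half-lives come from group means under exponential loss. The fit was tested on simulated data. The 6 members, the lists and the rule for other named genes (up to 4 per list and comparison by smallest adjusted p, and the 3 genes most like each member) were chosen with earlier results of these data known. Some genes that this rule names are not reported here.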

Additional observations from a re-analysis of the deposited data

Results flagged for a closer look

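Both results below were listed because the change from 0 h to 8 h differed between sgQKI+EV and sgNS+EV by a test of the difference itself. The difference for AMOTL2 was −0.72 (limma adjusted p = 0.00335), with both 8 h libraries of sgQKI+EV below both of sgNS+EV. The difference for ANKRD1 was −0.61 (limma adjusted p = 0.0139), again with both 8 h libraries of sgQKI+EV below both of sgNS+EV. The median signal of all genes at 8 h was lower in sgQKI+EV too, at 11.5 and 11.4 against 13.2 and 13.2 in sgNS+EV. The share of all genes that separated in this way was not counted. At 0 h the sgQKI+EV libraries of both genes were above those of sgNS+EV, and that difference did not pass. No cause was tested.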

How the results depend on the processing

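Over the members' values, 707 of the alternative values that left no library out kept their direction and their side of the threshold, 31 lost a call, 21 gained one and 21 changed sign. When 1 library at a time was left out, these were 448, 39, 1 and 16. The signal has no known depth and each group holds 2 libraries.

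For the 0 h differences, genes passed were 195 as reported, 1032 with library totals, 771 with quantile normalisation and 1328 with only the compared groups for sgQKI+EV minus sgNS+EV, with 3, 2 and 2 members. For QKI7-△KH minus sgQKI+EV they were 1590, 47, 87 and 3736, with 0 members under both scalings and 6 with only the compared groups, FJX1 (0.0223) and AMOTL2 (0.0152) included. For QKI7-WT minus sgQKI+EV they were 11, 92, 131 and 41. For QKI7-WT minus QKI7-△KH they were 471, 55, 143 and 265, with 1, 1 and 2 members. For the change from 4 h to 8 h, library totals and quantile normalisation gave 4297 and 4355 genes in QKI7-WT, 2085 and 2478 in QKI7-△KH, and 2885 and 3075 in sgQKI+EV. From 0 h to 4 h there were 3640 genes in QKI7-WT among those of mean signal 10 or more, 2535 in QKI7-WT with only the compared groups, and 4374 in sgNS+EV with library totals. For the decay difference of sgQKI+EV and sgNS+EV, 85 genes passed as reported, 1341 at 4 h in place of 8 h, 54 with library totals, 180 among genes of mean signal 10 or more and 1373 with only the compared groups, the last with 4 members. For that of QKI7-WT and QKI7-△KH, 2012 genes and 3 members passed at 4 h in place of 8 h, then 0 genes without QKI7-WT 4 h replicate 1 and 5292 without replicate 2. The cause was not tested.

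Changes of sign came with scaling or the 4 h time. With library totals AMOTL2 was −0.032 in the QKI7-WT minus QKI7-△KH decay difference and −0.034 in QKI7-△KH minus sgQKI+EV at 0 h, FJX1 −0.044 in QKI7-WT minus sgQKI+EV, CTGF 0.096 in sgQKI+EV minus sgNS+EV, and CYR61 0.056 from 4 h to 8 h in sgQKI+EV. MYOF was then 0.035 in QKI7-△KH and 0.19 in sgNS+EV from 0 h to 4 h, and 0.090 in sgNS+EV to 8 h. With quantile normalisation CTGF was 0.0031 in sgQKI+EV minus sgNS+EV, and CYR61 from 4 h to 8 h was 0.0085 in QKI7-△KH, 0.15 in sgQKI+EV and 0.060 in sgNS+EV. MYOF was then 0.023 in QKI7-△KH and 0.18 in sgNS+EV to 4 h, 0.0098 in sgQKI+EV from 4 h to 8 h, and 0.068 in QKI7-WT, 0.0089 in sgQKI+EV and 0.17 in sgNS+EV to 8 h. At 4 h in place of 8 h the QKI7-WT minus QKI7-△KH decay difference was 0.36 for ANKRD1 and 0.21 for CTGF, and the sgQKI+EV minus sgNS+EV one was −0.011 for FJX1.

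Without 1 library in turn, genes passed from 0 h to 4 h ranged over 4530 to 6840 in QKI7-WT, 7638 to 9365 in QKI7-△KH, 6469 to 8181 in sgQKI+EV and 5832 to 6329 in sgNS+EV. From 4 h to 8 h they ranged over 9018 to 10386 in QKI7-WT, 4501 to 6939 in QKI7-△KH, 7651 to 9774 in sgQKI+EV and 6812 to 7756 in sgNS+EV, and from 0 h to 8 h over 10415 to 11480 in QKI7-WT, 10381 to 11435 in QKI7-△KH, 10628 to 11325 in sgQKI+EV and 10172 to 10896 in sgNS+EV. At 0 h the range was 25 to 99 for sgQKI+EV minus sgNS+EV, 20 to 1026 for QKI7-△KH minus sgQKI+EV with 0 to 4 members, 2 to 5 for QKI7-WT minus sgQKI+EV, and 16 to 175 for QKI7-WT minus QKI7-△KH with 0 to 2 members. For the decay differences it was 1 to 11 with 0 to 2 members for sgQKI+EV minus sgNS+EV and 0 throughout for QKI7-WT minus QKI7-△KH. Signs turned within −0.046 to 0.090 for AMOTL2, −0.065 to 0.030 for ANKRD1 and −0.081 to 0.26 for FJX1 in the QKI7-WT minus QKI7-△KH decay difference, −0.029 to 0.19 for FJX1 in the sgQKI+EV minus sgNS+EV one, and −0.077 to 0.0033 for CTGF and −0.11 to 0.23 for FJX1 in QKI7-WT minus sgQKI+EV at 0 h.

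The titles number the replicates without saying whether equal numbers pair the libraries, and the main fit used no pairing. The replicate deviations correlated above 0.1 in 21 of 66 pairs of groups (lowest −0.42, median −0.017, highest 0.48). Values this mixed cannot decide whether the libraries were paired. With a replicate block the genes passed were 218 for sgQKI+EV minus sgNS+EV, 564 for QKI7-WT minus QKI7-△KH, 9 for QKI7-WT minus sgQKI+EV and 1871 for QKI7-△KH minus sgQKI+EV at 0 h, and 109 and 0 for the decay differences. The block added a call for AMOTL2 in QKI7-△KH minus sgQKI+EV (0.0489).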
